A study of Mus musculus with 12 samples.

Results

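The keratins described here are 9 intermediate filament genes: the simple epithelial keratins Krt7, Krt8, Krt18, Krt19 and Krt20, and the stratified epithelial keratins Krt5, Krt14, Krt15 and Krt17. They were chosen by name, as the probe sets to which the platform's probe table gives one of these symbols and no other, which found 14 of the 45101 probe sets and 9 of the 18193 genes with a probe set of their own. A further probe set names both Krt17 and Krt14 and was left out of the fits of single genes. Its signals lay between 2.6 and 47.9 on the 12 arrays. Krt8 and Krt14 had 3 probe sets each, Krt17 had 2 and the other genes had 1.

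The series compares ways of amplifying nanogram amounts of RNA before hybridization to mouse expression arrays, and its 12 arrays form 4 groups of 3. One group holds total RNA of mouse kidney, bought from Ambion, at an input of 10 ng. The other groups hold a universal mouse reference RNA, a commercial pool made from cell lines (the supplier is given as Strategene), at 10, 3 and 0.3 ng. All samples carry the code pRS, whose meaning is not given in the labels. No strain, sex, age or treatment is given for the kidney RNA, nor the number of animals behind it, and the labels do not say whether replicates are separate extracts, amplifications or only hybridizations. The p-values therefore measure the spread between these arrays, which may be technical.

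Keratins are the intermediate filament proteins of epithelial cells. A filament is built from heterodimers of a basic type II keratin (Krt5, Krt7 and Krt8 here) with an acidic type I keratin (Krt14, Krt15, Krt17, Krt18, Krt19 and Krt20 here). Krt8 and Krt18 are the principal pair of single-layered epithelia and are made in kidney tubules, Krt7 and Krt19 accompany them in ducts, collecting ducts and urothelium, and Krt5 and Krt14 are the pair of basal cells in stratified epithelia such as epidermis. Simple keratins are also made by many epithelial, embryonal and transformed cell lines. In mouse, type II genes form a cluster on chromosome 15 and type I genes a cluster on chromosome 11. Krt18 is the exception: in the RefSeq annotation of GRCm38.p6 it lies on chromosome 15 and its neighbouring protein-coding gene is Krt8. In that annotation 4 of the 9 genes lie on chromosome 15 (Krt5, Krt7, Krt8, Krt18) and 5 on chromosome 11, where Krt15 and Krt19 are adjacent.

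The 250 bases before the transcription start are shown for the adjacent partners Krt8 and Krt18, which differed unequally between kidney and reference, and for Krt7, the simple keratin that was higher in kidney. They are taken from RefSeq promoters of GRCm38.p6, whose table held 6 of the 9 genes, and are written 5′ to 3′ on the strand of the gene. Capitals mark matches to the GC box GGGCGG on either strand.
Krt8, chr15:102004343-102004592, - strand: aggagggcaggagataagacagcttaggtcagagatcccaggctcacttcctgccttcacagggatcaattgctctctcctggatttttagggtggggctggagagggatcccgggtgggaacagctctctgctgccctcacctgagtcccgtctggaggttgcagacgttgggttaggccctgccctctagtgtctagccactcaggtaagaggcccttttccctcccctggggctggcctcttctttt
Krt18, chr15:102027966-102028215, + strand: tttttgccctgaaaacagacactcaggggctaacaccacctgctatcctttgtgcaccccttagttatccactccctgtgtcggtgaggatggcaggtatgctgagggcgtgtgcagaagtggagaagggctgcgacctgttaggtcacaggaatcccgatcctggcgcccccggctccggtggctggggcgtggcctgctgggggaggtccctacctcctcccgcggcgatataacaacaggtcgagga
Krt7, chr15:101412153-101412402, + strand: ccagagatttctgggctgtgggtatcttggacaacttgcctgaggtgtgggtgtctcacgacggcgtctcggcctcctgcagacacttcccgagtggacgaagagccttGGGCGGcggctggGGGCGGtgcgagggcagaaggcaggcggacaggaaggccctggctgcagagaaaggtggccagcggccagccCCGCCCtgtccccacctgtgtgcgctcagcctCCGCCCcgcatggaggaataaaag
Krt7 carries 4 GC boxes in this window, and Krt8 and Krt18 carry none. Of all 32851 promoters in the table, 32.7% held at least 1 GC box in the same window. None of the 3 sequences holds the TATA box TATAAA on either strand, against 12.4% of all promoters. None holds the CCAAT box, spelt as its name, against 33.9%, and none the AP-1 site TGANTCA, against 6.75%. The search read each motif on both strands, and a match or its absence says only which letters stand in this window. The GC content was 58.0% for Krt8, 60.4% for Krt18 and 66.0% for Krt7, against a median of 52.4% over all promoters.

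Values are linear array intensities, called signals here, which the authors scaled so that every array has a 2% trimmed mean of 500. A signal at or under 33.65, the level under which 95% of the readings of 27 Bacillus control probe sets lie, is called background. Log2 changes and their p-values come from limma on log2(signal + 3.9), a scale that understates changes of dim probe sets. Benjamini-Hochberg adjustment ran over 27022 probe sets that passed a filter on low signals. Changes written as a fold are ratios of geometric mean signals without the added 3.9. Where a whole group lay under background, its signals were set to background and the fold is given as at least. Probe sets had to exceed a signal of 65.4 in the mean of at least 1 group. This kept 9 of the 14 keratin probe sets, and 7 of the 9 genes, all but Krt15 and Krt17. Signals of different probe sets are not compared with each other as levels, since probes differ in brightness.

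Kidney differed from the reference at equal input in a way that divided the simple keratins. Krt7 was 5.84-fold higher in kidney, whereas Krt18 was 9.74-fold, Krt19 7.65-fold and Krt8 1.74-fold lower. Of the stratified keratins, Krt5 was higher and Krt14 lower, both dim. Krt5 passed the filter only through its kidney mean and Krt14 only through its reference means. The call of Krt5 was kept under 10 of 17 alternative settings of the analysis. By gene, 2 of the 7 tested keratins were called higher and 4 lower (limma, adjusted p under 0.05), and by probe set 2 of 9 higher and 6 lower. Over all 27022 probe sets the same rule called 60.1%, 22.9% higher and 37.2% lower, so a call by itself does not set the keratins apart. The median log2 change over all tested probe sets was -0.34, and it was -0.09 after centring each array on its median.

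**Figure D1:**
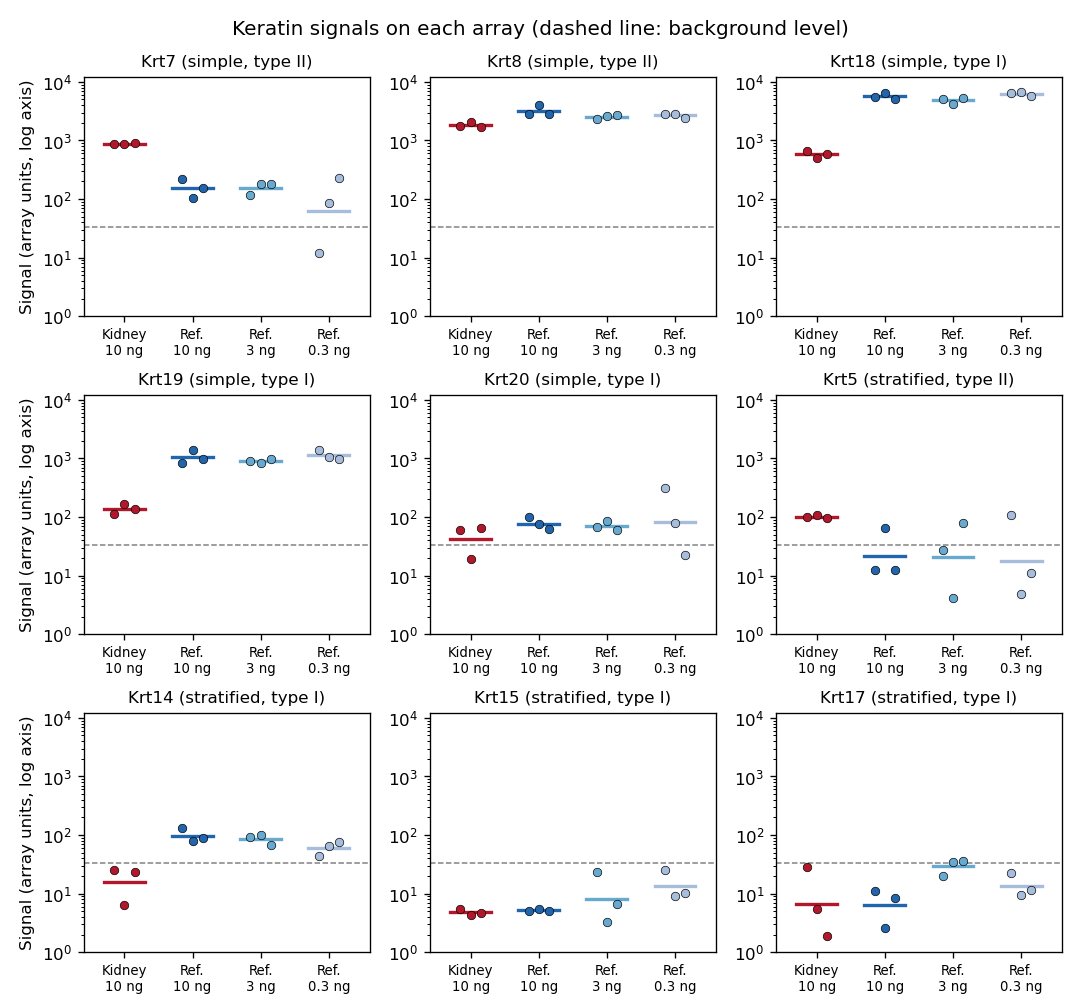
Signal of each keratin's representative probe set on the 12 arrays, on a log axis in array units, by group (kidney 10 ng, reference 10, 3 and 0.3 ng). Points are single arrays, short bars the geometric mean of 3 arrays and the dashed line the background of 33.65; Krt7 lies higher in kidney than on any reference array, Krt8, Krt18, Krt19 and Krt14 lie lower, and Krt15 stays under the line throughout.

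Among the simple type II keratins, Krt7 (gene ID 110310), the partner of Krt18 and Krt19 in ductal epithelium, gave signals of 874.9, 865.5 and 922.8 on the 3 kidney arrays. Reference arrays gave 217.7, 103.9 and 155.1 at 10 ng, 116.6, 182.8 and 178.3 at 3 ng and 12, 85.7 and 229.6 at 0.3 ng. Every kidney array lay above every one of the 9 reference arrays. The log2 change between kidney (887.7 ± 30.7, mean ± SD, n = 3) and the reference at 10 ng (158.9 ± 57.0, n = 3) was 2.51 (SE 0.27, 95% interval 1.84 to 3.19, limma adjusted p = 0.00071). Across the 17 alternative settings it stayed between 2.25 and 2.77 and past the threshold.

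Krt8 (gene ID 16691), the type II keratin of nearly all simple epithelia, was represented by the brightest of its 3 probe sets. It gave 1749, 2102.3 and 1723.7 in kidney. The reference arrays read 2864.8, 4074.6 and 2875.8 at 10 ng, 2328.3, 2590.7 and 2745.1 at 3 ng and 2841.7, 2866.5 and 2389.3 at 0.3 ng. The kidney arrays lay under all 9 reference arrays, by a small margin. The log2 change at 10 ng was -0.80 (SE 0.19, 95% interval -1.28 to -0.32, limma adjusted p = 0.0143). Relative to the median of all tested probe sets it was -0.46. After arrays were centred on their medians the change was -0.56 and no longer passed (limma adjusted p = 0.0586). The other probe sets of Krt8 fell by 1.10 and 0.82 on the log2 scale (limma adjusted p = 0.0209 and 0.0184). Both carry the suffix x, which marks probes that can also match other transcripts. One of them overlapped between kidney and the 9 reference arrays, with 1125.9 to 1688.1 in kidney and 1349 to 4317.2 in the reference.

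Among the simple type I keratins, Krt18 (gene ID 16668), the partner of Krt8, gave 661.3, 495.5 and 595.3 in kidney. The reference arrays read 5584.1, 6397.8 and 5044.6 at 10 ng, 5002.5, 4122 and 5386.7 at 3 ng and 6488.4, 6708.9 and 5723 at 0.3 ng. The groups were far apart, since the lowest reference array read 4122 and the highest kidney array 661.3. The log2 change at 10 ng was -3.28 (SE 0.17, 95% interval -3.69 to -2.86, limma adjusted p = 5.6e-05).

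Krt19 (gene ID 16669), the smallest keratin and a frequent marker of ducts, gave 111.2, 165 and 138.1 in kidney. On the reference arrays it gave 824.9, 1398.4 and 984.7 at 10 ng, 906.4, 852.3 and 976 at 3 ng and 1403, 1073.5 and 967.4 at 0.3 ng. All 9 reference arrays lay above all kidney arrays. The log2 change at 10 ng was -2.90 (SE 0.25, 95% interval -3.52 to -2.28, limma adjusted p = 0.00031). Krt18 and Krt19 passed in the same direction under all 17 alternative settings.

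Krt20 (gene ID 66809), a type I keratin of intestine and of the superficial cells of urothelium, gave 60.2, 19.2 and 65.3 in kidney and 101, 74.9 and 61.6 in the reference at 10 ng. At lower input it gave 68.4, 86.4 and 61.2 (3 ng) and 310.8, 77.9 and 22.3 (0.3 ng). The groups overlapped and 1 kidney array lay under background. The log2 change at 10 ng, -0.80, was not called (95% interval -1.95 to 0.35, limma adjusted p = 0.185).

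The stratified keratins were dim or at background, and none exceeded 130.4 on any array. Krt5 (gene ID 110308), the type II keratin of basal cells, gave 100.3, 108.7 and 95.3 in kidney. The reference arrays scattered, with 12.3, 66.5 and 12.4 at 10 ng, 27.5, 4.1 and 79.3 at 3 ng and 109.5, 4.9 and 11 at 0.3 ng. Of each reference group 1 array of 3 was above background, and the highest, at 0.3 ng, lay above all kidney arrays. The log2 change at 10 ng was 1.99 (SE 0.60, 95% interval 0.51 to 3.46, limma adjusted p = 0.0305), and 1.18 with all signals under background set to that level. Krt5 entered the test only through its kidney mean, so its call is not independent support of a difference. The call was lost when any array but reference 10 ng replicate 2 was left out (limma adjusted p from 0.0669 to 0.0899). It was also lost with no filter on low signals (adjusted p = 0.0547) and with all 12 arrays in 1 limma fit (adjusted p = 0.154).

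Krt14 (gene ID 16664), the type I partner of Krt5, gave 25.9, 6.4 and 23.3 in kidney, all under background. The reference arrays gave 130.4, 79.7 and 88.7 at 10 ng, 91.5, 99 and 69.2 at 3 ng and 44.9, 64.3 and 77.3 at 0.3 ng, all above background. With a kidney level that is only a bound, Krt14 was at least 2.89-fold lower in kidney than in the reference at 10 ng, the bound being background. The p-value belongs to the fit on signals as they stand, with a log2 change of -2.32 (limma adjusted p = 0.0067). That change rests on kidney signals under background, and was -1.43 with such signals set to background. Krt14 entered the test only through its reference means. This probe set also carries the suffix x. Neither of the other Krt14 probe sets passed the filter. One read 13.9, 30.2 and 2.5 in kidney and 46.1, 14.1 and 38.7 in the reference at 10 ng, which overlap, and the other was under background on all 12 arrays, with a highest signal of 28.1. The direction of Krt14 therefore rests on 1 of its 3 probe sets.

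Krt15 (gene ID 16665), a type I keratin of basal cells, was under background on all 12 arrays, with a highest signal of 25.2. Krt17 (gene ID 16667), a type I keratin of appendages and of injured epidermis, was above background in 2 of 12 arrays by its brighter probe set, with 35.1 and 36.1, both in the reference at 3 ng. Its other probe set was above background on 1 array, at 34.4. Neither gene was tested, and no level is given for either.

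Set against each other as groups, the simple keratins Krt7, Krt8, Krt18 and Krt19 had a median log2 difference of -1.85 between kidney and the reference at 10 ng, and the stratified keratins Krt5, Krt14, Krt15 and Krt17 one of 0.06, or 0.00 with background as the lowest value allowed. The stratified median is the midpoint of Krt15 (-0.06) and Krt17 (0.18), both untested and under background in both groups, so it holds no measured change. The difference of the medians, -1.91, therefore only restates the median of the simple keratins, and carries no test. Among the simple keratins 1 gene was called higher and 3 lower. Of the stratified keratins, Krt5 passed the filter only through its kidney mean and Krt14 only through its reference means, and the call of Krt5 was lost under 7 of 17 alternative settings.

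**Figure D2:**
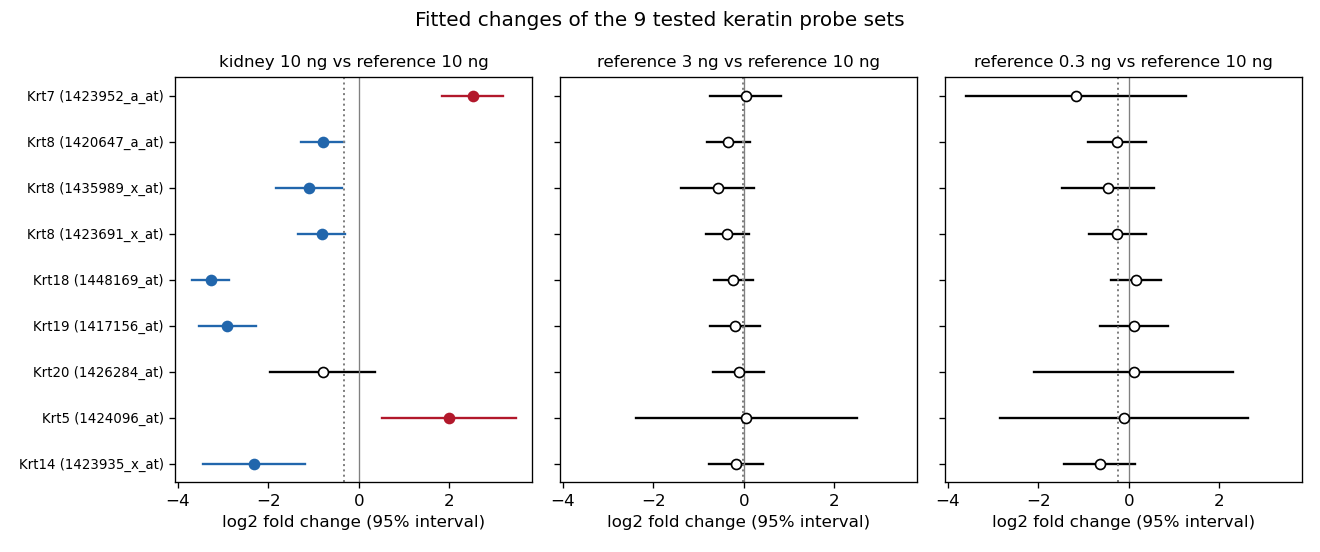
Log2 fold changes with 95% intervals of the 9 tested keratin probe sets in 3 limma comparisons, with filled points where the adjusted p was under 0.05 (red higher, blue lower) and a dotted line at the median of all tested probe sets. Of the 9 probe sets, 8 are called in kidney against the reference at 10 ng and 0 in the comparisons of reference inputs, where Krt5 has the widest intervals.

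The same changes can be written as ratios within each array, where scaling cancels. The difference of a ratio between groups is the difference of its genes' log2 changes given above, so it adds no second observation. The log2 ratio of Krt8 to Krt18 was 1.67 ± 0.36 in kidney and -0.81 ± 0.16 in the reference at 10 ng (SD, n = 3), a difference of 2.47. The ratio of Krt8 to Krt19 was 3.72 ± 0.18 against 1.62 ± 0.14, and that of Krt7 to Krt8 was -1.06 ± 0.20 against -4.37 ± 0.79. In each of these the 3 kidney arrays stood apart from the reference arrays at 10 ng (two-sided exact permutation p = 0.1, the smallest that 3 against 3 arrays allow, and 0.125 after adjustment over 5 ratios). Krt18 and Krt19, both type I, were not separated in this way. Their log2 ratio was 2.06 ± 0.48 in kidney and 2.43 ± 0.29 in the reference, and the arrays overlapped (difference -0.37, exact permutation p = 0.4). The ratio of Krt5 to Krt14 was 2.37 ± 0.93 against -1.94 ± 1.49 (exact permutation p = 0.1), with both genes near background. The ratios were chosen after the values had been seen, and the level of a ratio also holds the difference in brightness of its probe sets, so only its change between groups is read.

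**Figure D3:**
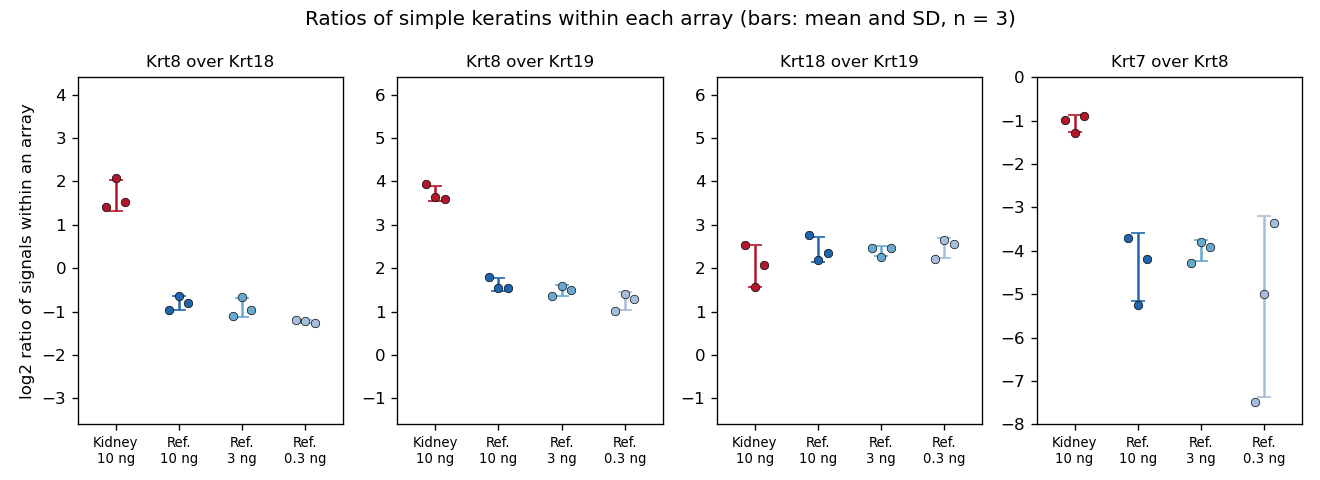
Log2 ratio of the signals of 2 simple keratins on the same array, for the 4 groups; points are arrays and bars the mean and SD of 3 arrays, and the axes start at different values but span the same range. Kidney lies apart from all reference arrays in the ratios with Krt8, and overlaps them in the ratio of Krt18 to Krt19.

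No keratin was called between inputs of the reference RNA. These comparisons share the reference 10 ng arrays with each other and with the kidney comparison. Between 3 and 10 ng, 0 of 27022 probe sets (0%) were called by limma, although 2736 had an unadjusted p under 0.05. No keratin probe set had one. Between 0.3 and 10 ng, 215 probe sets (0.796%) were called, 0.0333% higher and 0.762% lower, and 4175 had an unadjusted p under 0.05. Again no keratin probe set was among them. With only 9 keratin probe sets tested, this does not set the keratins apart from all probe sets.

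The intervals say how large a change these arrays leave possible. At 3 ng the log2 change from 10 ng was -0.23 for Krt18 (95% interval -0.66 to 0.20), -0.20 for Krt19 (-0.75 to 0.35), -0.34 for Krt8 (-0.81 to 0.13) and 0.04 for Krt7 (-0.75 to 0.83). At 0.3 ng it was 0.16 for Krt18 (-0.40 to 0.71), 0.12 for Krt19 (-0.63 to 0.87) and -0.26 for Krt8 (-0.89 to 0.37). Changes of the size seen between kidney and reference lie outside these intervals for Krt18 and Krt19. For Krt8 the change between kidney and reference, -0.80, lies inside its intervals at both 3 and 0.3 ng. For Krt7 at 0.3 ng the interval ran from -3.60 to 1.25, for Krt20 from -2.09 to 2.30 and for Krt5 from -2.84 to 2.62, so large changes of these dim genes were not detectable. Krt14 was lower at 0.3 ng on every array than at 10 ng, with a log2 change of -0.65 (-1.43 to 0.14) that was not called (limma adjusted p = 0.403). Of all tested probe sets 18.3% lay lower without overlap in this comparison. Krt8 likewise lay lower on every array at 3 than at 10 ng, as did 9.16% of all.

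The within-array ratios were also set out by input. The log2 ratio of Krt8 to Krt18 was -0.81 ± 0.16 at 10 ng, -0.91 ± 0.22 at 3 ng and -1.22 ± 0.03 at 0.3 ng, and the arrays at 0.3 ng did not overlap those at 10 ng (difference -0.42, exact permutation p = 0.1). The ratio of Krt8 to Krt19 also lay lower at 0.3 ng, at 1.24 ± 0.20 (difference -0.38, exact permutation p = 0.1). Between kidney and reference these ratios differed by 2.47 and 2.10. The median log2 change of all probe sets at 0.3 ng was -0.23. Only a shift that is equal for both genes cancels in a ratio. The ratio of Krt18 to Krt19 overlapped between all inputs.

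Kidney against the reference at lower input changes tissue and input together, and is given as values only. Krt7 was 5.69-fold higher in kidney than in the reference at 3 ng and 14.4-fold higher than at 0.3 ng. The latter includes a reference array at 12, under background. With background as the lowest value allowed, the log2 difference of Krt7 from 0.3 ng was 3.27, against 3.69 without. Krt18 was 8.29-fold and 10.8-fold lower, Krt19 6.68-fold and 8.32-fold lower and Krt8 1.38-fold and 1.45-fold lower. Krt14 was at least 2.54-fold and at least 1.80-fold lower. By representative probe set, the kidney arrays stood apart from all 9 reference arrays for these 5 of 7 tested genes. Krt7 lay higher and the other 4 lower. Another Krt8 probe set and the other Krt14 probe sets overlapped. Over all tested probe sets 41.7% stood apart so, 19.4% higher and 22.3% lower.

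The spread between replicate arrays at the lowest input differed widely among the tested keratins. At 0.3 ng the SD of log2 signal was 0.12 for Krt18, 0.15 for Krt8, 0.28 for Krt19 and 0.37 for Krt14. It was 1.96 for Krt7, 1.95 for Krt5 and 1.80 for Krt20. The median over all tested probe sets was 0.69 at 0.3 ng, 0.31 at 3 ng and 0.24 at 10 ng. For the 6590 probe sets with a mean signal above 1000 in the reference at 10 ng the median SD was 0.32 at 0.3 ng, and for the 4607 between 100 and 200 it was 0.93. Krt7 lies in the latter range and was measured at 12 to 229.6 in 3 arrays of the same RNA.

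**Figure D4:**
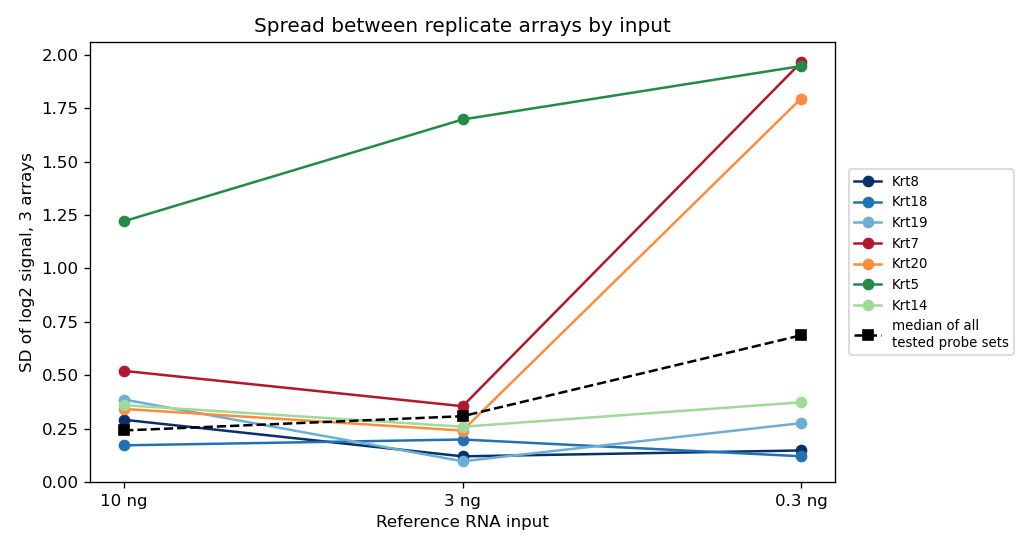
SD of log2 signal among the 3 reference arrays at each input (10, 3 and 0.3 ng, in order and not to scale) for the tested keratins, with the median over all 27022 tested probe sets as black squares. Krt8, Krt18, Krt19 and Krt14 lie under the median at 0.3 ng, and Krt7, Krt20 and Krt5 lie at 1.80 or above.

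The tissue labels were checked against marker genes. In kidney the tubule markers were present, with 7 of 7 tested genes called higher than in the reference at 10 ng, among them Umod, a protein of the thick ascending limb, at 10850 ± 53.3 and at least 322-fold higher than in the reference. All 5 tested collecting duct markers were higher as well, led by Fxyd4, a regulator of the sodium pump, at 4424 ± 91.5 against 28.2 ± 12.6. All tubule markers but Aqp1 and all collecting duct markers but Aqp3 passed the filter only through their kidney mean. A call as higher was thus favoured in advance, and the counts are given as description. Of 6 general epithelial markers 5 were called higher, with the adhesion molecule Cdh1 at 7174 ± 276 against 155.5 ± 45. Muc1 and Spint1 of this list also passed the filter only through kidney. Over all tested probe sets 22.9% were called higher. Epcam, an epithelial adhesion molecule, was present in both RNAs, with 1711 ± 83.2 against 1344 ± 182 (not called, limma adjusted p = 0.0801). In whole-tissue and pooled RNA, a smaller share of cells of a type and less RNA per cell cannot be told apart.

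Markers of urothelium, cornified epithelium and fibroblasts were read as well, beside 22.9% of all tested probe sets called higher and 37.2% called lower. Of 5 urothelium markers 2 were called higher in kidney (Upk2, log2 change 1.91, and Upk1a, 1.07) and 1 lower (Upk3b, -3.24). Their summed signal ran from 364.6 to 480.8 in kidney and from 449.9 to 540.4 in the reference at 10 ng, and no marker of the list was under background on all arrays of either group. Of 9 genes of cornified epithelium 8 had a probe set and 2 were tested. Against the reference at 10 ng, Krt10 was called higher and Sprr1a lower. The summed signal of the 8 ran from 654.6 to 928.2 in kidney and from 812.6 to 944.6 in the reference, and 5 of the 8 were under background on all kidney arrays. Of 5 fibroblast markers 4 were lower in kidney, led by the collagen gene Col1a2 (log2 change -3.16), with a summed signal of 6387 to 6845 against 22135 to 25280. The part of these cells in the keratin differences was not tested.

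Of 45 other keratin genes listed, 38 had a probe set and 11 were tested. In kidney 1 was called higher and 3 lower, beside 22.9% and 37.2% of all tested probe sets. Krt10, a type I keratin of suprabasal cells, was at 316.9 ± 125 against 133.6 ± 33.2 (log2 change 1.17, limma adjusted p = 0.0286). The same reference RNA gave 295.4 ± 124 at 3 ng and 283.9 ± 280 at 0.3 ng, near the kidney mean. The call of Krt10 therefore speaks only of the arrays at 10 ng. Krt13, a type I keratin of mucosal stratified epithelia, was at least 2.98-fold lower in kidney, and the hair keratin Krt32 at least 1.99-fold lower. Krt83, another hair keratin, had a log2 change of -1.26, or -0.65 with background as the lowest value. Of the 38 genes, 8 were at or under background on all 12 arrays.

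The desmosome is the junction to which keratin filaments attach. Of 10 tested desmosome genes, 6 were called higher in kidney and 1 lower, beside 22.9% higher and 37.2% lower of all tested probe sets. Their median log2 change was 1.51, against -0.34 over all tested probe sets. Desmoplakin (Dsp), which links keratins to the desmosome, was at 756.0 ± 145 against 127.1 ± 49.9 (log2 change 2.59, limma adjusted p = 0.0012). The desmosomal cadherin Dsg2 was at 1426 ± 171 against 119.5 ± 74.7. The cadherin Dsc2 was at 915.6 ± 405 against 12 ± 19.4, a log2 change of 4.51 when background is the lowest value allowed. The plakophilin Pkp1 was at least 6.95-fold lower in kidney.

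Of 7 tested genes of hemidesmosomes and plakins, 1 was called higher and 2 lower, beside 22.9% and 37.2% of all tested probe sets. The laminin chain gene Lama3 was at least 3.80-fold higher in kidney. The cytolinkers Plec and Eppk1 had log2 changes of -1.69 and -1.11.

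Of 6 tested genes of other intermediate filaments, 0 were called higher and 5 lower in kidney. The largest of these changes were -2.44 for the lamin gene Lmnb1, -2.02 for the mesenchymal filament gene Vim, -1.94 for Nes, the filament of progenitor cells, and -1.72 for Lmna. Krt18 and Krt19 were lower in kidney as these vimentin and lamin genes were, beside 37.2% of all tested probe sets.

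Of 10 tested regulators of epithelial identity, 4 were called higher and 4 lower in kidney, beside 22.9% and 37.2% of all tested probe sets. Ehf, an epithelial ETS factor, was at 4640 ± 288 against 171.8 ± 35.3 (log2 change 4.74, limma adjusted p = 2.6e-05). The epithelial splicing regulator Esrp1 had a log2 change of 3.63. The factor Ovol1 had one of 2.27, or 1.79 with background as the lowest value. Klf5, a factor of proliferating epithelia, had one of -1.98. Between reference inputs 0 genes of these keratin, junction, filament and regulator lists were called. Of the marker lists 1 gene was, the urothelial Upk3a, which was lower at 0.3 ng (13.0 ± 2.33 against 61.0 ± 6.20, limma adjusted p = 0.0364). Its level at 0.3 ng was under background, so the fall is given only as at least 1.81-fold.

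The genes most like each keratin over the 12 arrays were sought among 12801 other genes by Pearson's correlation of log2 signal, as a description. Of the 12 arrays 9 hold 1 RNA, so such a correlation mainly reflects the step from kidney to reference. For Krt18 the nearest were Fos, Slpi and Sh3pxd2b (r = 0.997 each), and for Krt19 Gpx8 (r = 0.994), Vim (r = 0.993) and Phtf1 (r = 0.992). For Krt8, which has the smallest step of the 3, they were Mms19 (r = 0.961), Commd5 (r = 0.946) and Ddit3 (r = 0.938). For Krt14 they were Ckap2 (r = 0.974), Morc3 (r = 0.969) and Cenpu (r = 0.968), and for Krt5 Ifi27 (r = 0.903), Alkbh7 (r = 0.900) and Atp6v0e (r = 0.884).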

How the data were processed

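The sample titles put the 12 arrays into 4 groups of 3. The authors deposited a linear intensity for each probe set, scaled so that every array has a 2% trimmed mean of 500, as found from the values. Their software and background correction are not stated. Genes were named from the 2016 platform annotation: 34945 probe sets carry 1 symbol, 932 several and 9160 none. All 9 gene IDs stand in the RefSeq table. A gene was represented by its probe set of highest mean log2 signal.

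The pseudocount, 3.9, is the 10th percentile of positive values. The filter was the 40th percentile of each probe set's highest group mean, with 64 controls left out. Each comparison was fitted on its 6 arrays by limma 3.58.1 in R 4.3.3 (lmFit, eBayes), which takes 1 variance for both groups, two-sided, with a threshold of 0.05. The fit was tested on simulated data. The 17 alternatives covered normalization, pseudocount, filter, probe set, arrays in the fit, array weights, the replicate block and each array left out, and 1 (signals raised to background) was chosen after seeing the data.

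The keratins and the 14 lists were chosen with earlier results of these data known. All keratins are named, as are up to 4 called genes of each list with the largest change, or 2 where none was called, and the 3 non-keratin genes most correlated with Krt8, Krt18, Krt19 and any stratified keratin above background on every array of a group. Epcam and Upk3a fall outside this rule and were chosen after their values were seen. Some genes that the rule takes from the marker lists are given by count only.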

Additional observations from a re-analysis of the deposited data

How the results depend on the processing

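In kidney against the reference at 10 ng, 111 of 119 values of single keratins under the 17 alternatives kept their direction and their side of the threshold, and 8 lost the call: 7 of Krt5 and 1 of Krt8. The count of keratins called higher was 1 with no filter, 1 with all 12 arrays in 1 fit and 1 to 2 when arrays were left out in turn, all through Krt5, against 2. The count called lower stayed at 4 when arrays were left out. The difference of the simple and stratified medians, the latter set by genes under background, ran from -2.16 to -1.44 as arrays were left out. With the Krt8 probe set of largest variance, its ratio to Krt18 differed by 2.18 and that to Krt19 by 1.80 (1.91 after quantile normalization).

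Between reference inputs no keratin was called under any alternative, and only signs changed. At 3 ng Krt7 moved from 0.04 to -0.013 (quantile normalization) and -0.062 (centring), and Krt5 from 0.06 to -0.043 (centring) and -0.015 (pseudocount 1). Leaving out arrays gave -0.23 to 0.29 for Krt7, -0.74 to 0.95 for Krt5, -0.27 to 0.066 for Krt20, -0.32 to 0.025 for Krt14 and -0.37 to 0.014 for Krt19. At 0.3 ng Krt5 moved from -0.11 to 0.32 (quantile normalization and centring), 0.032 (pseudocount 16) and 0.23 (signals raised to background), and Krt8 from -0.26 to 0.17 (centring). Leaving out arrays gave -0.050 to 0.33 for Krt19, -0.82 to 0.98 for Krt20 and -1.21 to 0.63 for Krt5. The difference of medians, -0.38 at 0.3 ng, became 0.21 with probe sets of largest variance and ran from -0.88 to -0.067 as arrays were left out. At 3 ng it was -0.49 and ran from -1.07 to -0.18. The cause of these changes was not tested.

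The groups share replicate numbers in the titles, but same-numbered arrays did not deviate together: the correlations of their deviations ran from -0.063 to 0.012. This shows no shared effect of the number, and cannot tell whether same-numbered arrays were processed together. With the replicate block, limma called 14650 probe sets in the kidney comparison, 0 at 3 ng and 0 at 0.3 ng, and no call of a keratin changed. The count at 0.3 ng, 215 over all probe sets, was 72 after quantile normalization, 79 with centring, 76 with no filter, 69 with array weights, 1571 with all 12 arrays in 1 fit, 559 with signals raised to background and 0 to 595 as arrays were left out. At 3 ng it was 0, and 1 to 5 with centring, with a filter on overall means and with all 12 arrays in 1 fit. Signals near background limit what can be said of Krt5, Krt14, Krt15, Krt17 and Krt20.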

Other observations

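Ordered by filament type, a grouping chosen after the values were seen and given with no test, the type II keratins Krt7 and Krt5 were called higher in kidney and Krt8 lower by 1.74-fold. Of the 4 tested type I keratins, Krt18, Krt19 and Krt14 were called lower, Krt20 was not called and none was called higher. The call of Krt5 was lost under 7 of 17 alternative settings. Krt5 passed the filter only through its kidney mean and Krt14 only through its reference means. Over all tested probe sets 22.9% were called higher and 37.2% lower. Other keratins ran against this order, with the type I keratin Krt10 called higher (log2 change 1.17, limma adjusted p = 0.0286) and the type II hair keratin Krt83 called lower (-1.26, limma adjusted p = 0.0319). The reference means of Krt10 at 3 and 0.3 ng, 295.4 and 283.9, lay near its kidney mean of 316.9.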
